A study of Mus musculus with 2 samples.

Results

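The regions described here are AT-rich distal sites that were open in both replicates of a DNase-seq experiment on mouse midbrain. DNase-seq reads where the enzyme DNase I cuts chromatin, and a peak is a short stretch with many cuts. The series has 1 group: midbrain tissue of B6NCrl mouse embryos at embryonic day 11.5, healthy and with both sexes pooled, in 2 biological replicates with no control or input library among the files used here. The peak lists of both replicates were joined on chromosomes 1 to 19, with any overlap of 1 bp or more making a single region, and 87757 of the resulting 574914 regions held a peak of each replicate. Of these shared regions, 43872 had a midpoint 2.5 to 100 kb from the nearest transcription start site (TSS) of a protein-coding gene. A GC content under 40% in the 150 bp around the midpoint then selected 2194 sites (5.0%), which are called AT-rich sites, and left 41678 other shared distal sites. Base composition, position and the presence of a peak in each replicate chose the sites. No limit was set on signal, but requiring a partner peak selected for it: the median signal of AT-rich distal sites was 26 in replicate 1 with a partner required and 6 without, and 14 and 5 in replicate 2. When either list was used alone with no partner required, 19047 AT-rich distal sites were found with replicate 1 and 38802 with replicate 2.

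Distal open sites are as a rule bound by transcription factors, and they include enhancers, which act on promoters at a distance, and insulators. Several factor families of the embryonic brain read sequences rich in A and T. Homeodomain proteins, including those of the LIM and paired classes, bind TAATTA, and POU proteins bind an octamer. SOX proteins bind in the minor groove at sites rich in A and T and bend the DNA. CTCF, the zinc finger protein that stops loop extrusion by cohesin and bounds chromatin domains, instead reads a long motif rich in G and C. Nucleosomes and DNase I itself also have sequence preferences.

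The midbrain label was checked on promoters. A TSS was called open where both replicates had a peak no farther than 500 bp from it, and at least 1 open TSS was found for 13777 of 20807 autosomal protein-coding genes (66.2%). The TSS was open for 19 of 19 neural progenitor genes, 21 of 21 neuronal differentiation genes and 18 of 20 midbrain and isthmus patterning genes. It was also open for 21 of 21 housekeeping genes, 20 of 20 cell cycle genes, 20 of 20 ion channel and receptor genes and 23 of 24 neuronal adhesion and synapse genes. High counts were thus not particular to midbrain lists and identify the tissue only weakly. The other cell types that dissected tissue can hold gave 17 of 20 mesenchyme and neural crest genes, 9 of 18 endothelial genes, 7 of 13 erythroid genes and 4 of 15 microglia and macrophage genes. An open TSS is not a measure of transcription, and in bulk tissue fewer cells of a type and weaker opening per cell cannot be told apart. No p-value is given below, because regions of the same 2 libraries are not replicates. Intervals are 95% Wilson intervals that cover counting error only and, with 1 library a replicate, effects of the library and of the biological sample cannot be told apart.

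The strongest AT-rich sites, ranked by the mean of their within-list signal percentiles, show what these regions look like. The first 4 windows below are from the 10 strongest sites. In the first pair the capitals mark a core of the CTCF motif, and in the second pair they mark CACTAG, the 6-base sequence that led all hexamers at these sites. The last 4 windows are among the strongest with a match to another family, and their capitals mark a PBX-HOX match (Rnf144a, Zfp618) or a ZIC match (Cadm3, 4930558K02Rik). Each window is 150 bp of mm10, plus strand, named by the gene with the nearest TSS.
Atr, chr9:95853036-95853185: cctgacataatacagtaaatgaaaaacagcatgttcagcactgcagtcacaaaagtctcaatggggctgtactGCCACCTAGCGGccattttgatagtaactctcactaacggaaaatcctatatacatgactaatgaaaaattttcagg
Nfkbia, chr12:55506056-55506205: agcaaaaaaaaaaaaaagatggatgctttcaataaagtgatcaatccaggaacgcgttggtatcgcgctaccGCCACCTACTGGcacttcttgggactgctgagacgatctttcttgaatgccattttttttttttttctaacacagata
Nxph1, chr6:8935836-8935985: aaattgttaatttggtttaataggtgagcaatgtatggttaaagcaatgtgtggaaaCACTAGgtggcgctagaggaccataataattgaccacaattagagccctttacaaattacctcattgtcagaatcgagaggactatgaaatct
Fcgr3, chr1:171044826-171044975: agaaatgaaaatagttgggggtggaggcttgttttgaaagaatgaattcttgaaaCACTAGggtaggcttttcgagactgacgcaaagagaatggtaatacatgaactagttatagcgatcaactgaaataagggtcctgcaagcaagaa
Rnf144a, chr12:26424996-26425145: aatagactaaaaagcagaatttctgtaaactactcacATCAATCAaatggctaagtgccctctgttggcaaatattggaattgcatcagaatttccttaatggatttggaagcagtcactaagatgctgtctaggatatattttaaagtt
Zfp618, chr4:63057086-63057235: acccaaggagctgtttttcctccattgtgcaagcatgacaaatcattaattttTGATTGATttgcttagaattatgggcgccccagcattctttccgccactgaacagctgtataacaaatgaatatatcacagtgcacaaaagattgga
Cadm3, chr1:173398726-173398875: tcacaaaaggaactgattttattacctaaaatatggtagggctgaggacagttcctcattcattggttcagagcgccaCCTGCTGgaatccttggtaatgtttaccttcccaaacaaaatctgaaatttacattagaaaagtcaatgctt
4930558K02Rik, chr1:161999976-162000125: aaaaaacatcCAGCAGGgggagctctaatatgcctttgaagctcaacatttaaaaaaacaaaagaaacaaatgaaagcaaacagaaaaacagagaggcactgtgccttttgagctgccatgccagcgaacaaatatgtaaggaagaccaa

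The site nearest to Atr, which encodes a DNA damage checkpoint kinase, had a signal of 76 in replicate 1 and 62 in replicate 2. It was intergenic, lay 4486 bp from the TSS, and held the CTCF core 74 bases into the window, next to its midpoint. The site nearest to Nfkbia, which encodes an inhibitor of NF-kappa-B, had 71 and 60 and was also intergenic, with the core at base 73. The site nearest to Nxph1, which encodes a secreted ligand of neurexins, had 80 and 46. Its window held CACTAG but not the whole core, so the search counted no CTCF match there. The site nearest to Fcgr3, which encodes an Fc receptor, had the highest mean percentile of the 2194, with 101 in replicate 1 and 71 in replicate 2. Of the 10 strongest sites, only those of Atr and Nfkbia held a CTCF core.

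The other 6 of the 10 strongest lay nearest to Frmd4a (signal 83 in replicate 1 and 74 in replicate 2), Tex14 (104 and 45), Arid1b (96 and 45), Slc25a25 (80 and 58), Kif2c (88 and 44) and Gm7694 (82 and 46). The Tex14 site was intronic and the other 9 of the 10 were intergenic. The Frmd4a window was made of copies in tandem: shifted by 42 bases, it matched itself at 85.2% of 108 compared bases, whereas the best shift in the other 9 windows gave 31.6% to 41.2%. Whether copies in tandem affected the mapping there was not tested. Masked repeats covered 74.7% of the Slc25a25 window and 52.0% of the Nfkbia window.

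AT-rich sites were weaker than the rest of the shared distal sites. The signal, a whole number with no stated normalization that the authors deposited for each peak, had a median of 26 at AT-rich sites against 46 at other shared distal sites in replicate 1. In replicate 2 the medians were 14 and 23. The quartiles of AT-rich sites were 10 and 44 in replicate 1 and 7 and 21 in replicate 2, against 28 and 69 and against 15 and 37 at other sites, so the distributions overlapped widely. As a rank within its own list, the median AT-rich site stood at percentile 62.5 in replicate 1 and 71.9 in replicate 2, against 79.9 and 84.8 for other sites. Across the 2194 sites, which come from the same 2 libraries, the signals of the replicates had a Spearman correlation of 0.808, against 0.719 across the 41678 other sites.

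The decline was gradual and did not begin at the limit. Shared distal sites with 38 to 40% GC had median signals of 29 and 15 in replicates 1 and 2, and those just outside the limit, with 40 to 42% GC, had 32 and 16. The 64 sites with under 30% GC had 7 and 5.5, and the 6152 sites with 60% GC or more had 64 and 40. Windows tiled over the same distances from TSSs were under 40% GC in 33.9% of cases, against 5.0% of shared distal sites, 14.8% of distal peaks of replicate 1 and 18.02% of distal peaks of replicate 2.

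**Figure D1:**
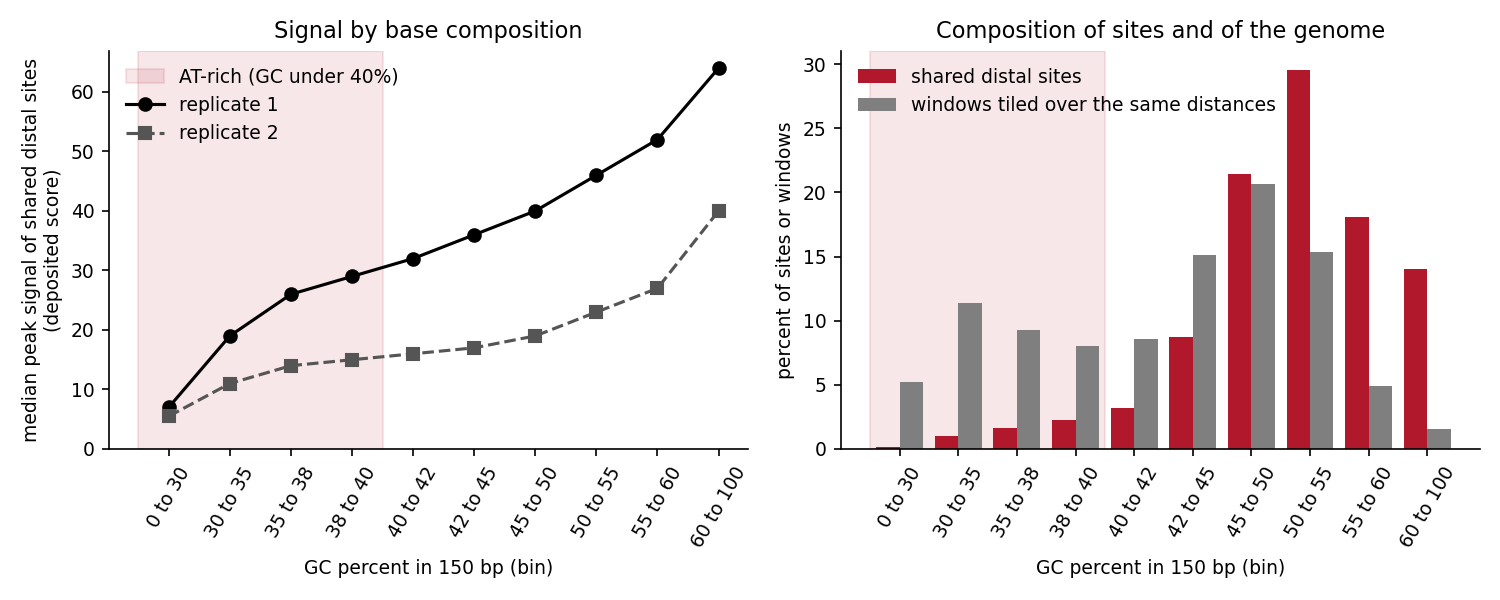
Left, median deposited peak signal of shared distal sites by GC percent of the 150 bp window, with replicate 1 as circles and replicate 2 as squares; shading marks the AT-rich bins. Right, the percent of shared distal sites (red) and of tiled genome windows (grey) in each bin. Signal was lowest in the bin under 30% GC (7 and 5.5) and highest at 60% or more (64 and 40), and the red bars stay below the grey ones in every AT-rich bin.

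AT-rich peaks seldom had a partner in the other replicate. Of 21734 AT-rich distal peaks of replicate 1, 10.4% overlapped a peak of replicate 2, against 35.1% of 125152 other distal peaks. Of 46062 AT-rich distal peaks of replicate 2, 6.65% overlapped a peak of replicate 1, against 21.8% of 209605 others. The shares of the replicates count the same overlaps from each list in turn, so they are not independent values. The mean over both replicates was 8.53% ± 2.66 for AT-rich peaks and 28.4% ± 9.43 for others (SD, n = 2). Signal moved with this difference: the median AT-rich peak had a signal of 6 in replicate 1 and 5 in replicate 2, against 23 and 8 for other peaks. Within deciles of each list by signal, numbered from 1 (weakest) to 10, the shares came close together. In decile 6 of replicate 1, with signals of 20 to 25, 26.8% of AT-rich peaks and 28.5% of others had a partner. In decile 9 of replicate 1, with signals of 45 to 64, the AT-rich share was the higher one, 83.6% against 69.1%. In decile 9 of replicate 2, with signals of 17 to 24, the order was the other way round, 42.4% for AT-rich peaks against 49.9% for others.

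**Figure D2:**
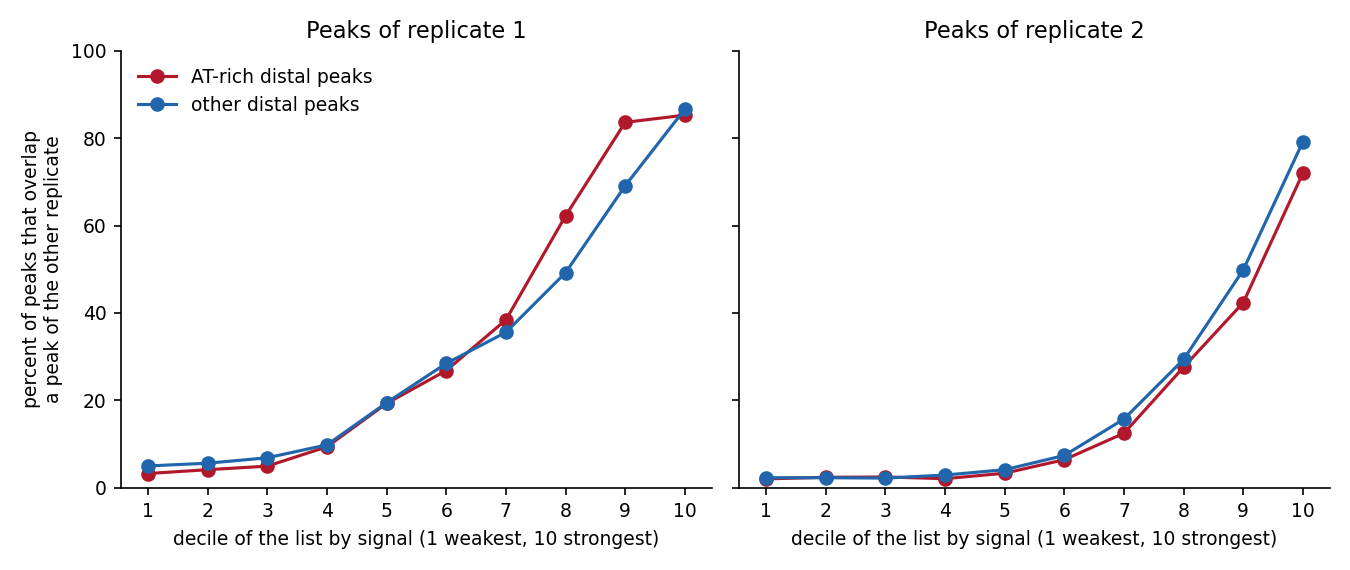
Percent of distal peaks that overlap a peak of the other replicate, by decile of the list by signal, for AT-rich peaks (red) and other distal peaks (blue), with replicate 1 left and replicate 2 right. In both panels the share climbs with signal for both kinds of peak, to 85.3% and 86.6% for AT-rich and other peaks in decile 10 of replicate 1 and to 72.0% and 79.2% in that of replicate 2.

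The layout of the sites differed in smaller ways. Their median distance to the nearest TSS was 27867 bp, against 22807 bp for other shared distal sites. The 20 kb around them had a median GC content of 41.3%, against 46.0%, so their surroundings too held less GC than those of other shared distal sites. A comparison with 20 kb stretches of the genome at large was not made. Intergenic sites made up 51.1% of AT-rich sites and 49.5% of others, and intronic sites 45.7% and 44.9%. The intergenic difference turned to -2.75 percentage points with the list of replicate 2 alone. Masked repeats covered a mean of 20.6% of the AT-rich windows and 10.9% of the others. More than 1 peak of a replicate was merged into 28.1% of AT-rich sites and into 14.9% of others. Where each replicate gave a single peak, the peaks were shifted by at most 40 bp at 60.2% of 1577 AT-rich sites and at 66.6% of 35459 others. By chromosome, AT-rich sites made up 3.46% of shared distal sites on chromosome 7, 3.53% on chromosome 11 and 7.10% on chromosome 3. Tiled distal windows under 40% GC made up 32.5% of all on chromosome 7, 26.8% on chromosome 11 and 40.5% on chromosome 3, so the last of these was also the richest in A and T by this measure.

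Exons held 70 of the AT-rich sites (3.19%), against 5.61% of other shared distal sites. Of these 70, 58 lay in the 3′ UTR, the untranslated end of the transcript, and 12 in coding sequence. The 3′ UTR share of exonic sites was 82.9% for AT-rich sites and 43.8% for others. Several of these sites lay in genes of developmental transcription factors. Zic1, a zinc finger factor of dorsal neural progenitors, had 3 AT-rich sites in its own 3′ UTR, with signals of 18, 14 and 26 in replicate 1 and 20, 23 and 23 in replicate 2. The 3′ UTR of Sox11, a SOX factor of newborn neurons, held a site with 26 and 31, and that of Pou4f1, a POU factor of midbrain and sensory neurons, held a site with 21 and 33. Pou3f3, which encodes a POU factor of neural progenitors, had a 3′ UTR site with 32 and 27.

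Of the sequences found in at least 1% of AT-rich sites, the CTCF core had the largest ratio between AT-rich sites and their surroundings. The core was searched on both strands as CC, 3 bases of any kind, AGG, any base and GGC. It was found in 179 of 2128 AT-rich sites that had a control window, or 8.41% (7.31 to 9.67%). Each control window was drawn 2 to 10 kb from its site, where neither replicate had a peak or a hotspot, and its GC content differed by at most 2 percentage points. Of these windows, 0.235% held the core (0.100 to 0.549%). Of the other shared distal sites, 36127 had a control window and 5551 had none. Those with a window held the core in 10.9% of cases, with 0.687% in their control windows. Shares set beside control windows below likewise cover only sites that had one. Among tiled distal windows of the same length, 0.412% held the core, and 0.0862% of those under 40% GC did. Centring the 150 bp on each replicate's own peak gave 9.02% for replicate 1 and 7.79% for replicate 2, a mean of 8.41% ± 0.870 (SD, n = 2). Both values come from the same 2194 sites and are not independent. Without the need for a partner peak the share was 1.39% with the list of replicate 1 alone and 0.558% with that of replicate 2 alone.

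A looser core, chosen after the leading hexamers were seen, was CC, 3 bases, AG, 2 bases and GGC. It was present in 437 of the 2128 AT-rich sites, or 20.5% (18.9 to 22.3%), and in 1.41% of their control windows (0.989 to 2.01%). Other shared distal sites with a control window held it in 22.3% of cases and their control windows in 3.05%. Of all 41678 other sites, 8805 held it. Tiled distal windows held it in 1.89% of cases, and those under 40% GC in 0.886%. By GC content the share changed little, with 18.8% of the 64 sites under 30% GC, 17.6% at 30 to 35%, 20.6% at 38 to 40% and 22.3% at 50 to 55%.

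Hexamers were counted with no motif in hand. All 2080 hexamer classes had both strands joined, and the 10 with the largest ratio of AT-rich sites to control windows, among 1160 present in at least 5% of sites, all held G or C. CACTAG led, in 16.3% of AT-rich sites and 4.42% of control windows, a ratio of 3.69. It was followed by GCCACC at 12.2% and 4.09%, by CCACTA at 13.0% and 4.93% and by GAGGGC at 10.0% and 3.99%. The letters of these 4 can each be placed within the looser core on 1 strand or the other. That core was chosen after they were seen and leaves several bases free, so the placement is not an independent match. With the list of replicate 2 alone the CACTAG ratio was 1.17, and with that of replicate 1 alone it was 1.67. At other shared distal sites CACTAG had a ratio of 2.15. Of the 36 hexamers made of A and T only, the largest ratio belonged to TAATTA, at 1.33.

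The CTCF sequence lay at the centre of the sites. In the 440 AT-rich sites with the looser core, counted over all 2194, the core was a median of 13 bp from the midpoint, and 80.6% of 443 cores were within 30 bp. At 8805 other shared distal sites with it, the median was 17 bp and 74.8% of cores were within 30 bp. Around AT-rich sites, matches in the 50 bp bins on both sides of the midpoint numbered 185 and 223, against 7 and 16 in the same bins around control windows. Masked repeats covered 9.26% of the cores at AT-rich sites and 15.8% of those at other sites.

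**Figure D3:**
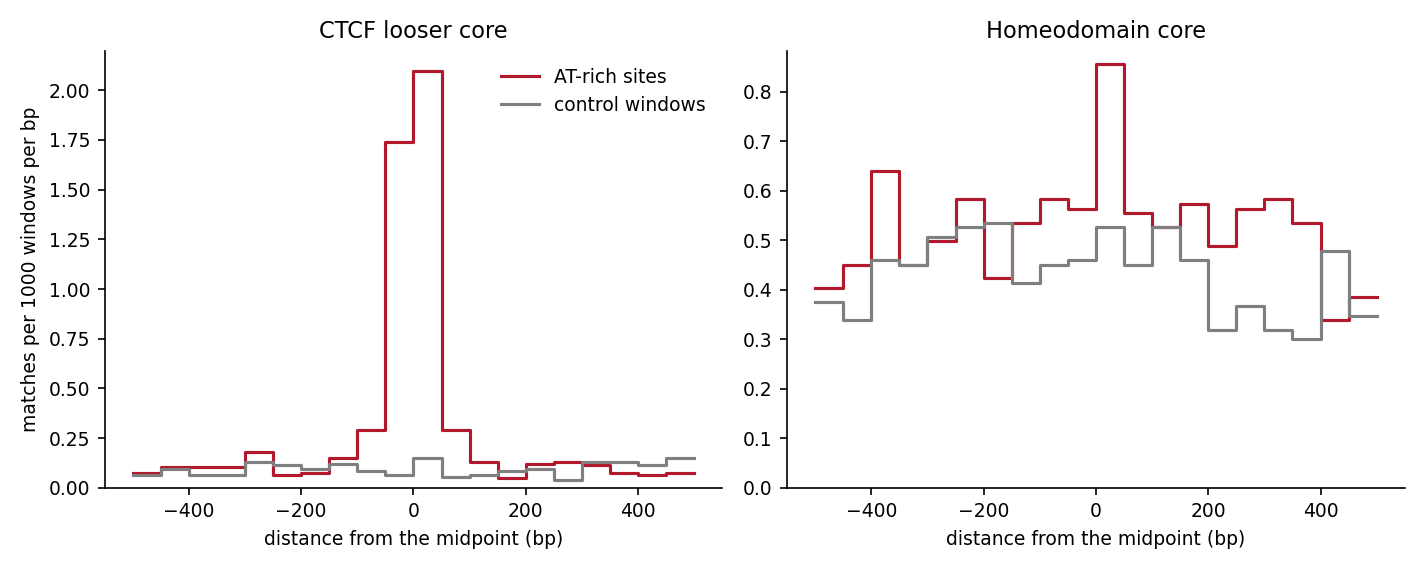
Matches per 1000 windows per bp in 50 bp bins, by distance from the midpoint of 2128 AT-rich sites (red) and of their control windows (grey), for the CTCF looser core on the left and the homeodomain core on the right. The CTCF bins next to the midpoint reach 1.74 and 2.10 at AT-rich sites, against 0.0658 and 0.150 at control windows, and the homeodomain bins there reach 0.564 and 0.855 against 0.461 and 0.526.

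Signal and the CTCF sequence went together. When AT-rich sites were divided into 4 equal groups by the mean of their signal percentiles, the looser core was present in 4 of 548 of the weakest group (0.730%), in 8.74% of the second group, in 23.9% of the third and in 46.8% of the strongest (42.7 to 51.0%). Other shared distal sites, divided among themselves in the same way, had 7.58%, 16.0%, 26.1% and 34.9%. Groups of the same rank were not alike in signal. From weakest to strongest, median signals in replicate 1 were 5, 17, 34 and 52 for AT-rich groups and 20, 36, 56 and 83 for others. In replicate 2 they were 4, 11, 17 and 26 for AT-rich groups and 12, 19, 28 and 46 for others. AT-rich sites with the looser core had a median signal of 45 in replicate 1 and 22 in replicate 2, against 20 and 12 for AT-rich sites without it. Sites with the core were also more sharply placed: peaks of both replicates were shifted by at most 40 bp at 83.9% of them, against 52.0% of those without it. More than 1 peak of a replicate was merged into 8.41% of sites with the core and 33.1% of those without.

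The sequence also went with being found in both replicates, though among peaks of the same decile this was clear only for stronger ones. AT-rich distal sites of replicate 1 only held the looser core in 1.70% of 16462 cases (1.51 to 1.91%) and those of replicate 2 only in 0.764% of 34018 (0.677 to 0.863%), with 0.802% and 1.09% in their control windows. Partnered peaks were stronger, so the shares were also read within deciles of each list by signal. In decile 9 of replicate 1, with signals of 45 to 64, the core was present in 51.0% of 388 AT-rich peaks with a partner (46.1 to 56.0%), against 13.2% of 76 without one (7.31 to 22.6%). In replicate 1 the intervals stood apart only in deciles 8 and 9. In deciles 1 to 3 of replicate 1 the share was no higher with a partner than without. In decile 10 of replicate 2, the core was present in 39.5% of 448 peaks with a partner (35.1 to 44.1%), against 1 of 174 without one, or 0.575% (0.102 to 3.18%). Signals in that decile ran from 25 to 74 with a partner and from 25 to 54 without, so the match on signal was only rough. In replicate 2 the intervals stood apart from decile 6 upward. Across all deciles of replicate 2, peaks without a partner held it in 0.573% to 1.01% of cases, however strong they were. In replicate 1, peaks without a partner held it in 12.4% to 17.6% of cases from decile 6 upward. The replicates thus differed in what their strong, unpartnered AT-rich peaks contained.

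**Figure D4:**
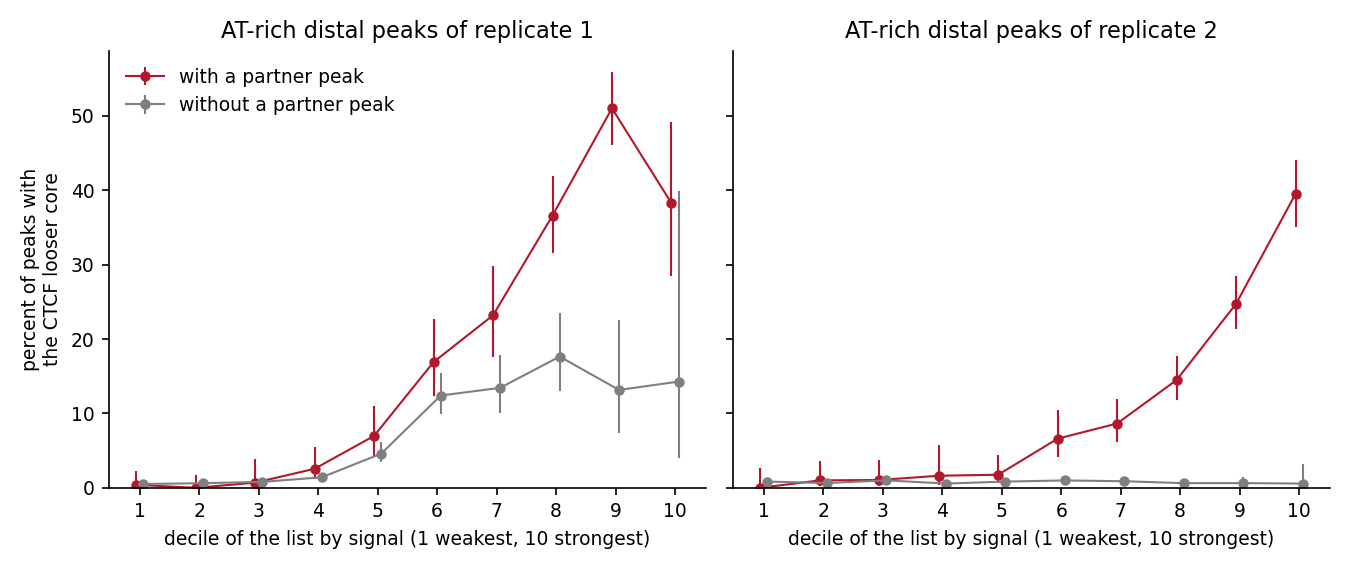
Percent of AT-rich distal peaks with the CTCF looser core, by decile of the list by signal, for peaks with a partner in the other replicate (red) and without one (grey), with replicate 1 left and replicate 2 right; bars are 95% Wilson intervals. Red points climb to 51.0% in decile 9 of replicate 1 and to 39.5% in decile 10 of replicate 2, while the grey points of replicate 2 stay at 0.573% to 1.01%.

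Homeodomain, POU and SOX sequences, all rich in A and T, had overlapping intervals in AT-rich sites and control windows. TAATTA was present in 8.74% of AT-rich sites (7.61 to 10.0%), in 6.58% of control windows (5.6 to 7.71%) and in 9.40% of tiled distal windows under 40% GC. Its ratio of sites to control windows was 1.33, and with control windows matched on repeat content too it was 0.940, which turns the direction. At other shared distal sites TAATTA was present in 3.03%, against 1.61% of their control windows, a ratio of 1.87. The POU octamer, ATGCAAAT, was present in 2.07% of AT-rich sites and 1.74% of control windows, against 1.34% and 0.498% for other shared distal sites and theirs. Of tiled distal windows, 1.10% held it, or 1.62% of those under 40% GC. The SOX sequence ACAATG was present in 12.7% and 12.03%, against 9.51% and 6.18% for other sites and theirs. Of tiled distal windows, 8.84% held ACAATG, or 11.2% of those under 40% GC. In the strongest signal quartile of AT-rich sites TAATTA stood at 6.95% in sites and 6.95% in control windows, and in the second weakest at 11.3% and 5.08%. Among AT-rich sites with no masked repeat it stood at 11.4% of 651 sites and 5.68% of their control windows, a ratio of 2.0. Where both the site and its control window had to be free of masked repeats, which left fewer of these sites, 9.32% of sites held it and the ratio was 1.15. Masked repeats covered a mean of 20.4% of all sites and 35.3% of all control windows, and their part in the TAATTA ratio was not tested further.

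A few rarer sequences were more frequent than in control windows, and ZIC and PBX-HOX were so beyond their counting intervals. The ZIC sequence CAGCAGG, read by zinc finger proteins of the dorsal neural tube, was present in 4.04% of AT-rich sites (3.28 to 4.96%) and 1.60% of control windows (1.15 to 2.22%), a ratio of 2.53. The ratio was 1.23 with the list of replicate 2 alone and 1.49 with that of replicate 1 alone. The sequence was present in 3.53% of tiled distal windows and in 1.09% of those under 40% GC. This sequence can overlap the CTCF core, as in the Cadm3 window, and in AT-rich sites without the looser core the shares were 3.43% and 1.36%. The PBX-HOX sequence TGATTGAT was present in 24 AT-rich sites, 1.13% (0.759 to 1.67%), and in 0.376% of control windows (0.191 to 0.740%). It was found in 0.569% of tiled distal windows and in 0.703% of those under 40% GC. The PBX-HOX ratio of 3.0 turned to 0.917 when GC content was taken in 300 bp, and was 1.06 with the list of replicate 2 alone and 1.76 with that of replicate 1 alone. The GC box GGGCGG was present in 20 sites, 0.940% (0.609 to 1.45%), against 0.282% of control windows (0.129 to 0.614%), with intervals that touch, and its ratio fell below 1 with either list alone (0.909 and 0.945). The ETS sequence CCGGAAG was present in none of the 2128 sites, which allows up to 0.18%, and in 0.235% of control windows. The PAX paired domain sequence GTCACG stood at 1.08% and 0.564% and the AP-1 sequence TGANTCA at 5.17% and 3.62%, with overlapping intervals in both cases. The PAX ratio of 1.92 fell to 0.931 and 0.834 with either list alone. Tiled distal windows held the GC box in 1.54% of cases, the ETS sequence in 0.447%, the PAX sequence in 1.35% and the AP-1 sequence in 4.47%. In those under 40% GC, which are closer in composition to the sites, these shares were 0.234%, 0.130%, 0.759% and 4.47%. Sequences of the GATA family (AGATAA), of homeodomain proteins of the OTX type (TAATCC), of forkhead factors (TGTTTAC), of TCF and LEF (ATCAAAG) and of ONECUT factors (ATCGAT) had ratios of 0.524 to 1.02. Tiled windows held them in 0.602% to 9.17% of cases, and those under 40% GC in 0.748% to 13.9%. The E-box CAGCTG and the related E-boxes CAGATG and then CACCTG, read by bHLH factors, had ratios of 1.04 to 1.09. Tiled windows held them in 6.17% to 11.6% of cases, and those under 40% GC in 2.57% to 8.88%. Ratios of 1.03 to 1.68 were found for POU4-type (GCATAAT), MEIS and PREP (TGACAG), shared SOX and TCF (ACAAAG), MEF2 (CTATTTATA), RFX (GTTGCCA), TEAD (GGAATGT), NFI monomer (TTGGCA) and nuclear receptor monomer (AGGTCA) sequences and for a paired-type homeodomain dimer with a gap of 3 bases, all with overlapping intervals. Tiled windows held these in 0.215% to 13.5% of cases, and those under 40% GC in 0.401% to 15.8%. A palindrome of NFI monomers set 5 bases apart was found in 2 AT-rich sites and in no control window. It was found in 0.00859% of tiled windows and in 0.00507% of those under 40% GC. Ratios were above 1 for 22 of the 28 families, against 25 at other shared distal sites.

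**Figure D5:**
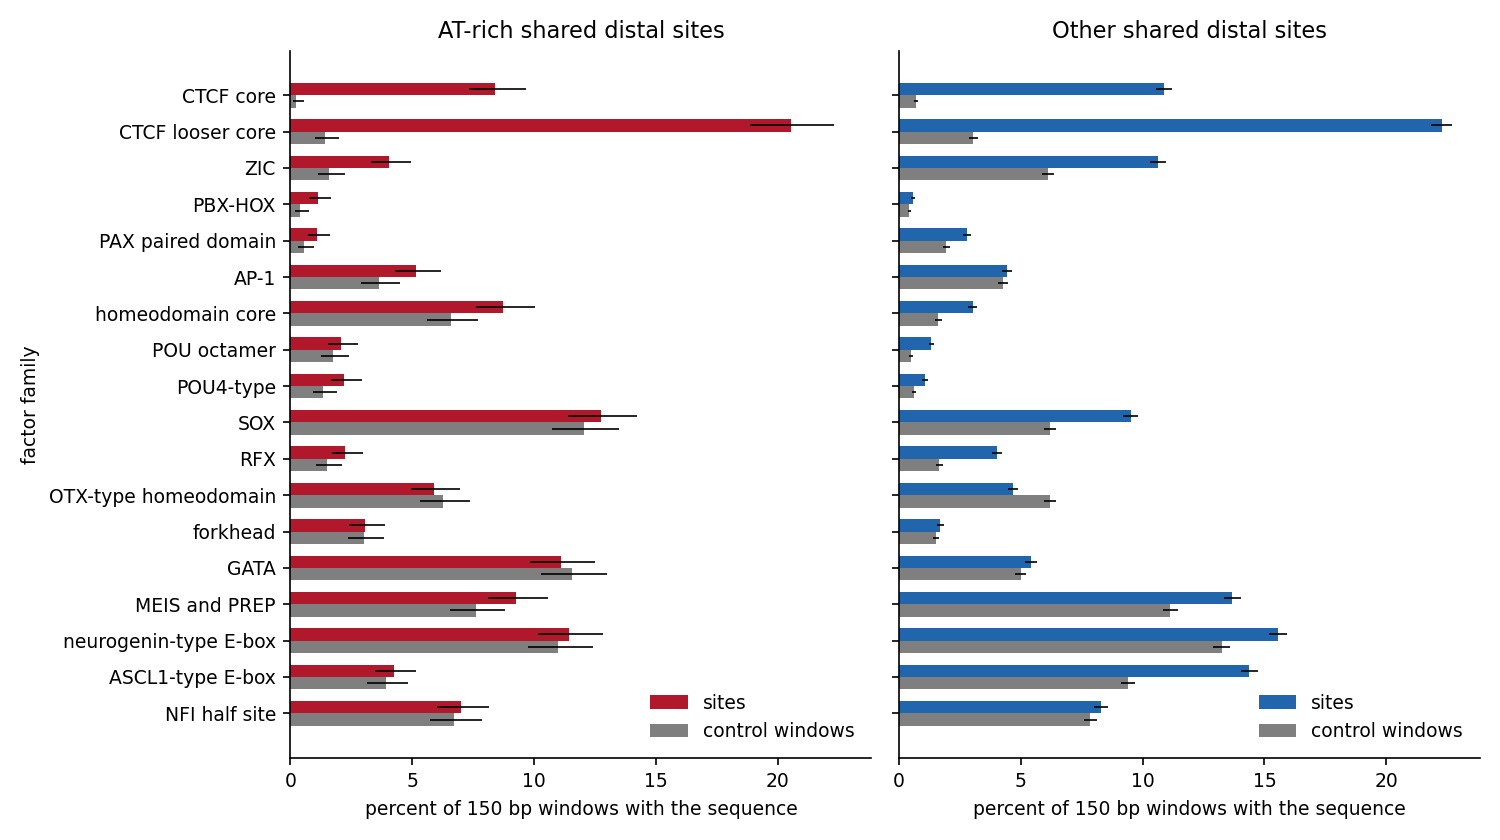
Percent of 150 bp windows that hold each family's sequence on either strand, for AT-rich shared distal sites (red, left) and other shared distal sites (blue, right), with control windows of matched GC content in grey; bars are 95% Wilson intervals. Sites without a control window are left out. At AT-rich sites only the CTCF cores (8.41% and 20.5%), ZIC (4.04%) and PBX-HOX (1.13%) among the 18 sequences drawn lie clear of their control windows.

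The site nearest to Rnf144a, which encodes a ubiquitin ligase, was the strongest with the PBX-HOX sequence, at 39 in replicate 1 and 42 in replicate 2. Its window held a looser CTCF core as well. The Zfp618 site, in an intron 91587 bp from the TSS, had the PBX-HOX sequence with signals of 54 and 19. The site in an intron nearest to Cadm3, which encodes an adhesion molecule of neurons, was the strongest with the ZIC sequence at 63 and 52, and the 4930558K02Rik site had 66 and 46. The strongest pair with the PAX sequence lay nearest to 4930524B15Rik (74 and 50) and in an intron nearest to Mypn, a muscle gene (61 and 32). The 4930524B15Rik window also held a CTCF core.

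AT-rich sites were spread over many genes. They were nearest to 1608 protein-coding genes, of which 1288 had a single AT-rich site, 201 had 2, and 119 had 3 or more. Of 829 genes with at least 10 shared distal sites, 549 had no AT-rich site. The nearest gene had an open TSS for 77.6% of AT-rich sites and 81.4% of other shared distal sites, and among all genes 66.2% had one.

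The genes with the most AT-rich sites mostly had weak ones. The most were nearest to Hs3st3b1, a heparan sulfate sulfotransferase gene: 10 of its 65 shared distal sites. Their signals ran from 3 to 9 in both replicates, none held the looser CTCF core, and all lay 52.6 to 94.8 kb from the TSS. Tmx4, a thioredoxin-related gene, had 9 of 19, with signals of 3 to 8 in replicate 1 and 2 to 9 in replicate 2. Oca2, a gene of pigment cells, had 9 of 23, with median signals of 6 and 4 and a single stronger site with 22 and 16, and single lists gave it 15 (replicate 1) and 22 (replicate 2). When only the stronger 50% of peaks were kept, there was no AT-rich site nearest to Hs3st3b1 or Tmx4. The list of replicate 2 alone gave 21 for Hs3st3b1, and that of replicate 1 alone gave 20 for Tmx4.

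Others had stronger sites. Fbxw7, which encodes the substrate receptor of a ubiquitin ligase, had 6 AT-rich sites of 13, all intronic, with signals of 5 to 56 in replicate 1 and 6 to 25 in replicate 2. Mkrn3, an imprinted gene, had 6 of 15, with 20 to 60 and 7 to 28, and 2 of them held the looser CTCF core. Speer4d (6 of 12 sites), Zfp982 (5 of 11) and Zfp991 (7 of 17) belong to families with similar copies, and none of these 3 had an open TSS. How reads were assigned among copies was not tested. Sfi1 had 7 of 21, and masked repeats covered a mean of 65.4% of those windows.

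Among the 14 gene lists, the AT-rich share was highest near neuronal adhesion and channel genes and low near patterning genes. Genes of neuronal adhesion and synapse had 17 AT-rich sites among 123 shared distal sites, 13.8% (8.81 to 21.0%), and ion channel and receptor genes had 8 of 51, 15.7% (8.17 to 28.0%). All genes together had 5.0%. Midbrain and isthmus patterning genes had 7 of 319, 2.19% (1.07 to 4.46%), neural progenitor genes 7 of 227, 3.08% (1.5 to 6.23%), and neuronal differentiation genes 5 of 176, 2.84% (1.22 to 6.48%). LIM homeobox genes had 5 of 126, POU genes 8 of 120 and SOX genes 11 of 236, with intervals that held 5.0%. Mesenchyme and neural crest genes had 9 of 107, endothelial genes 4 of 85 and erythroid genes 2 of 23. Housekeeping, cell cycle and microglia and macrophage genes had 0 of 46, 0 of 49 and 0 of 44, which allows up to 7.71%, 7.27% and 8.03%. Sites near 1 gene are not independent, and a single gene gave 5 of the 17 adhesion sites.

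Cntnap2, which encodes the neurexin family member CASPR2, had the most AT-rich sites of the adhesion genes, 5 of 16. Their signals were 58, 28, 51, 40 and 46 in replicate 1 and 34, 21, 27, 22 and 19 in replicate 2, and 2 of the 5 held the looser CTCF core. Cacna2d1, a calcium channel subunit gene, had 3 of 12, with signals of 36, 35 and 13 in replicate 1 and 11, 9 and 12 in replicate 2.

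Among regulators, Pou3f3 had 4 AT-rich sites of 39, the strongest with 77 in replicate 1 and 37 in replicate 2. Zic1 had 4 of 21, the 3 in its 3′ UTR and an intergenic site with 17 and 13. Neurod1, which encodes a bHLH factor of differentiating neurons, had 2 of 6. The stronger, 55410 bp from the TSS, had 62 and 43, and the other had 37 and 9. Irx3, a homeobox gene of the neural tube, had 2 of 23, with 28 and 17 at the farther one and 23 and 23 at the nearer, which held TAATTA. En2, a midbrain homeobox gene, had 1 of 14, with 14 and 16. Gbx2, which patterns the hindbrain side of the isthmus, had 1 of 26, with 33 and 24. In the neural crest list, Tfap2a had 3 of 15, with signals of 14, 15 and 40 in replicate 1 and 32, 26 and 21 in replicate 2. The site of the erythroid list nearest to Hbb-bt, a beta-globin gene, had 45 and 13 and held a CTCF core.

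Most AT-rich sites had the lower deposited signal in replicate 2, namely 1827 of 2194, while 255 (11.6%) had the higher one there. The 2 lists have no stated common scale, so the count is useful only for setting kinds of site side by side. Of 440 AT-rich sites with the looser CTCF core, 5 (1.14%) were higher in replicate 2, against 250 of 1754 without it (14.3%). The sites with the core also had the higher medians, 45 and 22 against 20 and 12, and the part of signal in this contrast was not tested. The LIM, POU, SOX, patterning, progenitor and differentiation lists together had 43 AT-rich sites. Of these, 15 (34.9%) were higher in replicate 2 and 27 were lower, with a median of 16 in each replicate. Near all other genes 240 of 2151 (11.2%) were higher, and the part of signal was again not tested. Zic1, Pou4f1, Sox11, Tfap2a and Pax6 each had a site that was higher in replicate 2, but other sites of Zic1 (17 and 13) and Tfap2a (40 and 21) were lower. At the Pax6 site, 3069 bp from the TSS, the signals were 11 in replicate 1 and 27 in replicate 2.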

How the data were processed

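For each replicate the authors deposited a peak list, whose signal value is a score with no stated normalization, and a hotspot list, whose q-values were deposited as −log10 q, both on mm10 per the file records. The sources used here do not give the aligner, the caller or the filters, and read depth is unknown. A merged region took the highest peak signal of each replicate. Gene models were the basic protein-coding transcripts of GENCODE vM21, and bases were read from GRCm38.p6, the assembly behind mm10. For each of 28 families 1 short sequence was searched on both strands (CTCF also in a looser form). A single control window was sought for each shared distal site, and 66 AT-rich and 5551 other sites lacked one. Sites to name were the 10 strongest and 2 for each of the 4 families with the largest ratio among those in at least 1% of sites. Genes to name were the 15 with most AT-rich sites, the 10 with the highest share among genes with 10 or more shared distal sites and the leading 3 of each of 14 lists, and a part of these is described. Items on chromosome 18 and a few others are not reported here. The members, sequences and lists were chosen with earlier results of these data known. Merging, the sequence search and the hexamer count were tested on simulated data, and the drawing of matched control windows was not. Computations used Python 3.11.15 with numpy 2.4.6, pandas 2.3.3 and scipy 1.17.1, and figures matplotlib 3.10.9.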

Additional observations from a re-analysis of the deposited data

How the results depend on the processing

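Each choice was changed alone. The number of AT-rich sites was 1249 with the stronger 50% of peaks, 507 with a GC limit of 35%, 3640 with hotspots and 19047 to 38802 with a single list. Their share was 1.16% with the 35% limit, 8.90% with hotspots and 14.0 to 17.6% with a single list. The median signal was 41 (stronger 50%), 38 (peaks at most 40 bp apart) and 6 (single list) in replicate 1, and 5 (single list) in replicate 2. With a single list the intergenic share was 44.0 to 51.2% and the open TSS share of nearest genes 79.4 to 85.8%, and the intergenic difference (AT-rich minus other) was 2.94 percentage points without replicate 2 and reversed to -2.75 without replicate 1. The TAATTA ratio was 1.06 (stronger 50%), 0.956 (overlap of 75 bp), 1.59 (35% limit), 0.940 (control windows matched on repeats), 1.15 (no masked repeats), 1.49 (sites without the looser CTCF core) and 1.05 to 1.17 (single list). The PBX-HOX ratio reversed to 0.917 with GC in 300 bp. The CTCF core share was 13.9% (stronger 50%), 11.4% (75 bp), 11.1% (300 bp), 4.02% (hotspots), 9.18% (repeats matched), 9.02% and 7.79% (windows on the peaks of replicates 1 and 2) and 0.558 to 1.39% (single list). The partner share was 7.15% (75 bp), 6.54% (35% limit) and 47.2% (stronger 50%) in replicate 1, and 3.77% (75 bp) and 16.6% (stronger 50%) in replicate 2. The causes were not tested, except that a 35% limit and a single list change by construction which sites are counted. The looser core, sites without it, windows on each peak and the 40 bp limit were chosen after seeing the data. No paired analysis was possible because the series has 1 group. Depth is unknown, so whether a site missing from 1 list was closed or undersampled was not tested.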
